A study of Mus musculus with 4 samples.

Results

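Homologous recombination and the Fanconi pathway were followed through 43 genes, chosen by name for the roles of their products and found by symbol among the 55421 genes listed for each library. All 43 were present and all passed the low-count filter. The libraries came from cultured astrocytes derived from C57BL/6J mouse neural stem cells by differentiation in medium with 10% fetal bovine serum. The astrocytes were infected with lentivirus carrying a short hairpin RNA (shRNA), either a control one or one directed at Phf8, a histone demethylase, and 2 libraries per group were sequenced after ribosomal RNA depletion. The labels name no other allele or agent, and they do not say whether the replicates were separate cultures, animals or infections, so each p-value reflects nothing beyond the spread among these 4 samples, and that spread may be technical. In bulk RNA, fewer cells of a type and less RNA per cell cannot be told apart.

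Homologous recombination repairs a broken chromosome by copying the intact sister copy, and therefore works mainly in cells that have replicated their DNA. Broken ends are recognised and trimmed, a recombinase is loaded on the exposed strand by the BRCA proteins, the strand invades the sister, and the joined intermediates are then dissolved or cut. The Fanconi pathway removes crosslinks between DNA strands ahead of replication forks and hands the resulting breaks to recombination, while the ATM and ATR kinases signal damage and hold the cell cycle. Transcripts of many of these genes are known to be most abundant when cells pass through S and G2 phase, so proliferating progenitors carry more of them than resting astrocytes.

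Total reads ran from 36839530 to 44724759 per library. Mitochondrial ribosomal RNA took 21.2% and 22.5% of the reads in control and 27.8% and 28.2% in Phf8 shRNA libraries, so it separated the groups too, and leaving out all mitochondrial and the 20 most abundant genes together changed no repair gene's call. The targeted gene Phf8 had 53.3 and 53 CPM in the control libraries and 44.3 and 42.3 CPM in the Phf8 shRNA libraries, where CPM is the read count relative to the library total after scaling by trimmed mean of M-values (TMM). The log2 fold change was -0.30 ± 0.06 (SE, adjusted p = 1.72e-06, quasi-likelihood test of edgeR, Benjamini-Hochberg adjusted), a modest decrease in the labelled direction. The summed level of 7 astrocyte markers, Gfap among them, was 8363 to 8604 CPM in control and 4931 to 5532 CPM in Phf8 shRNA libraries. That of 9 oligodendrocyte lineage markers was 644 to 689 and 1162 to 1195 CPM, that of 7 neuronal markers 231 to 238 and 468 to 473 CPM, and that of 6 microglial markers stayed between 3.03 and 3.81 CPM. Of the astrocyte markers 5 fell and 1, Slc1a2, rose, 8 of 9 oligodendrocyte and 5 of 6 tested neuronal markers rose, and the 3 tested microglial markers did not pass. Of 6 neural progenitor markers 2 fell and 3 rose, with summed levels of 1811 and 1843 CPM in control and 1826 and 1665 CPM in Phf8 shRNA libraries. Within that sum Nes was 4.85-fold and Prom1 3.34-fold lower, while Fabp7, named after its values were seen, was 2.89-fold higher. The part of these cell type markers in the results on repair genes was not tested.

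Control and Phf8 shRNA libraries were compared to find transcripts whose level differs between them. Whether the differences follow from less Phf8 was not tested. Among the 43 repair genes, 21 (48.8%) were lower with Phf8 shRNA, 3 were higher and 19 did not pass the test (adjusted p under 0.05). The share over all genes tested was 27.3% lower and 24.8% higher, with 52.1% called in all. Of the genes called, 78.0% had a larger absolute log2 fold change than Phf8 itself. The largest decreases were those of Rmi2, Clspn and Exo1, at 4.47-fold, 3.88-fold and 3.79-fold. Decreases of at least 1.5-fold were found in 15 of the 43 genes and of at least 2-fold in 9, beside 13.9% and 8.71% of all genes tested. The largest increase was 1.20-fold, that of Mre11a, whereas 12% of all genes tested rose by at least 1.5-fold and 5.5% by at least 2-fold. The median log2 fold change was -0.20, beside 0.01 over all 21042 genes tested. Among all genes changed, percent of calls higher was 47.7, and 58.0 with upper-quartile scaling, which gave 19 lower and 6 higher repair genes. That scaling added Xrcc2, Fancm and Slx4 to the higher genes, and scaling by library size alone added Brca2, Nbn and Mus81 to the lower ones. The summed level of all 43 went from 520.0 and 539 CPM in control to 501 and 486 CPM in Phf8 shRNA libraries. In 26 genes both Phf8 shRNA libraries lay below both control libraries, in 8 both lay above, and in 9 the groups overlapped. Groups that did not overlap made up 73.9% of all genes tested, 36.7% lower and 37.2% higher. With the coefficient of variation between samples set to 0.2, 14 of the 24 calls were lost, among them all 3 increases, and the 10 genes lower by at least 1.91-fold remained.

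**Figure D1:**
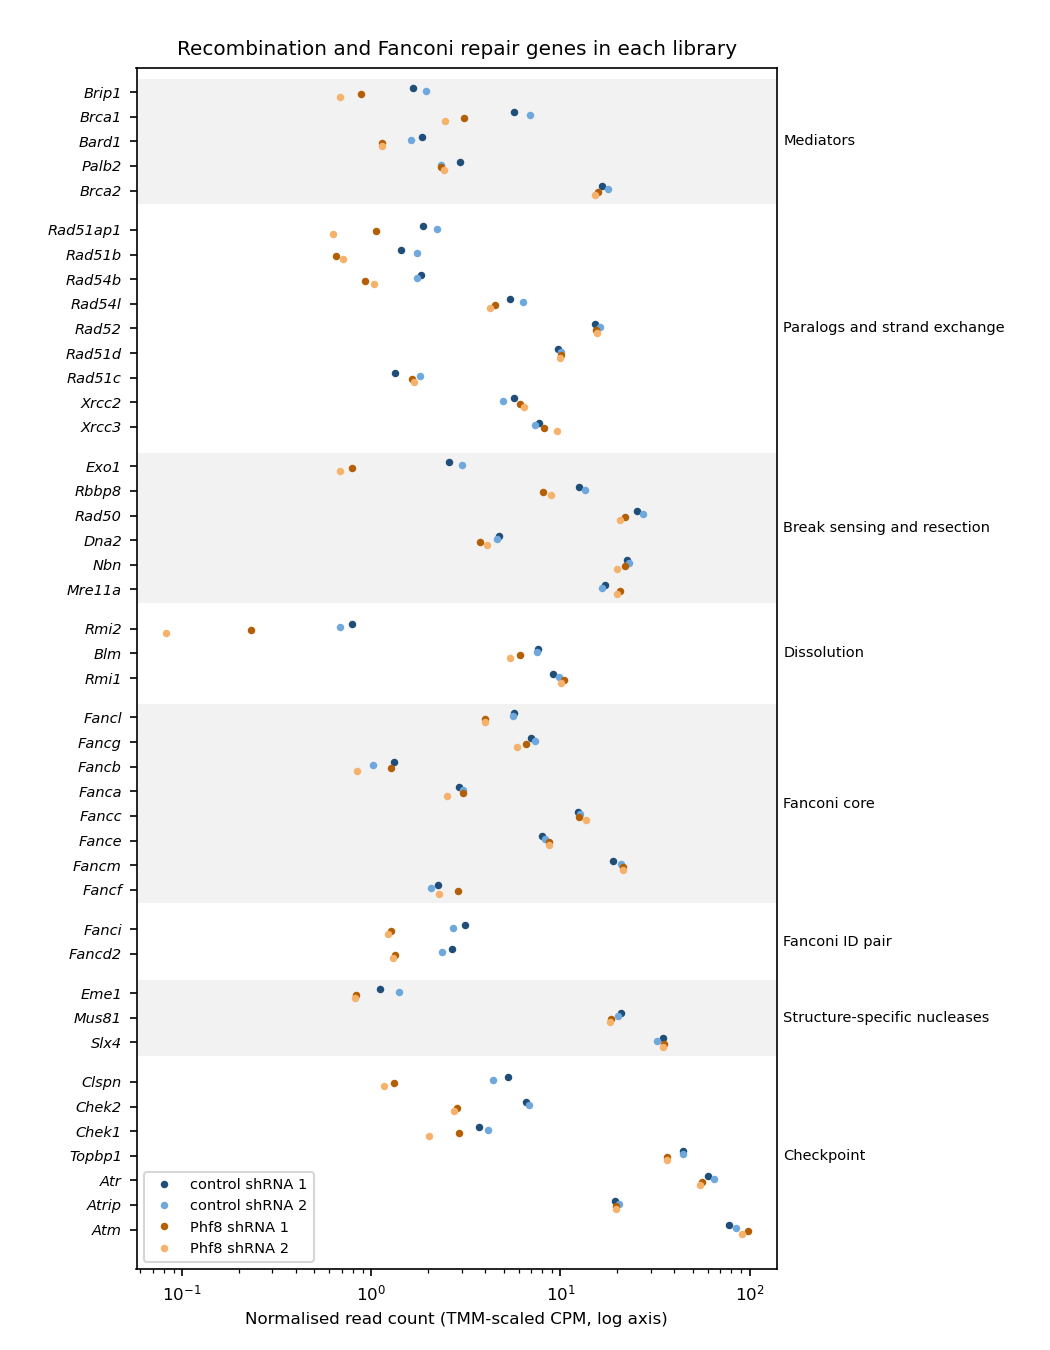
Normalised read count (TMM-scaled CPM, log axis) of each of the 43 repair genes in each of the 4 libraries, 1 point per library, with genes grouped by role. Points of Rmi2, Clspn and Exo1 are widely separated between the groups, while those of Rad52, Rad51d and Atrip lie on top of each other.

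Members taken from textbook knowledge to peak in S or G2 phase made up most of the lower genes. That split was made with earlier results of these data known. In the S or G2 set were Brca1, Brca2, Bard1, Brip1, Rad51ap1, Rad54l, Rad54b, Blm, Rmi2, Exo1, Dna2, Fanca, Fancb, Fancd2, Fanci, Eme1, Chek1, Clspn, Topbp1 and Xrcc2. Of 20 such genes 15 (75.0%) were lower and 5 did not pass, with a median log2 fold change of -0.63, and their summed level went from 121 and 123 CPM in control to 92.8 and 88.8 CPM in Phf8 shRNA libraries. Of the 23 other members 6 (26.1%) were lower, 3 were higher and 14 did not pass, with a median of -0.02 (0.07 with upper-quartile scaling, 0.02 without control replicate 2) and summed levels of 399 and 416 CPM in control and 408 and 397 CPM in Phf8 shRNA libraries. The share of the second set that was lower was near the 27.3% of all genes tested. The difference between the sets was not tested. Levels per length gave a similar division, from Nbn (8.99 CPM per kb in control) and Atm (7.85) at the top to Rmi2 (0.164) at the bottom. Of the 14 members with the lowest level in control (0.164 to 0.507 CPM per kb of exon), 10 were lower and 4 did not pass, with a median log2 fold change of -0.90. Of the 14 with the highest level (2.22 to 8.99 CPM per kb), 4 were lower, 3 higher and 7 did not pass, with a median of -0.02. The low group held 11 of the S or G2 genes and the high group 1, so both divisions overlap.

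**Figure D2:**
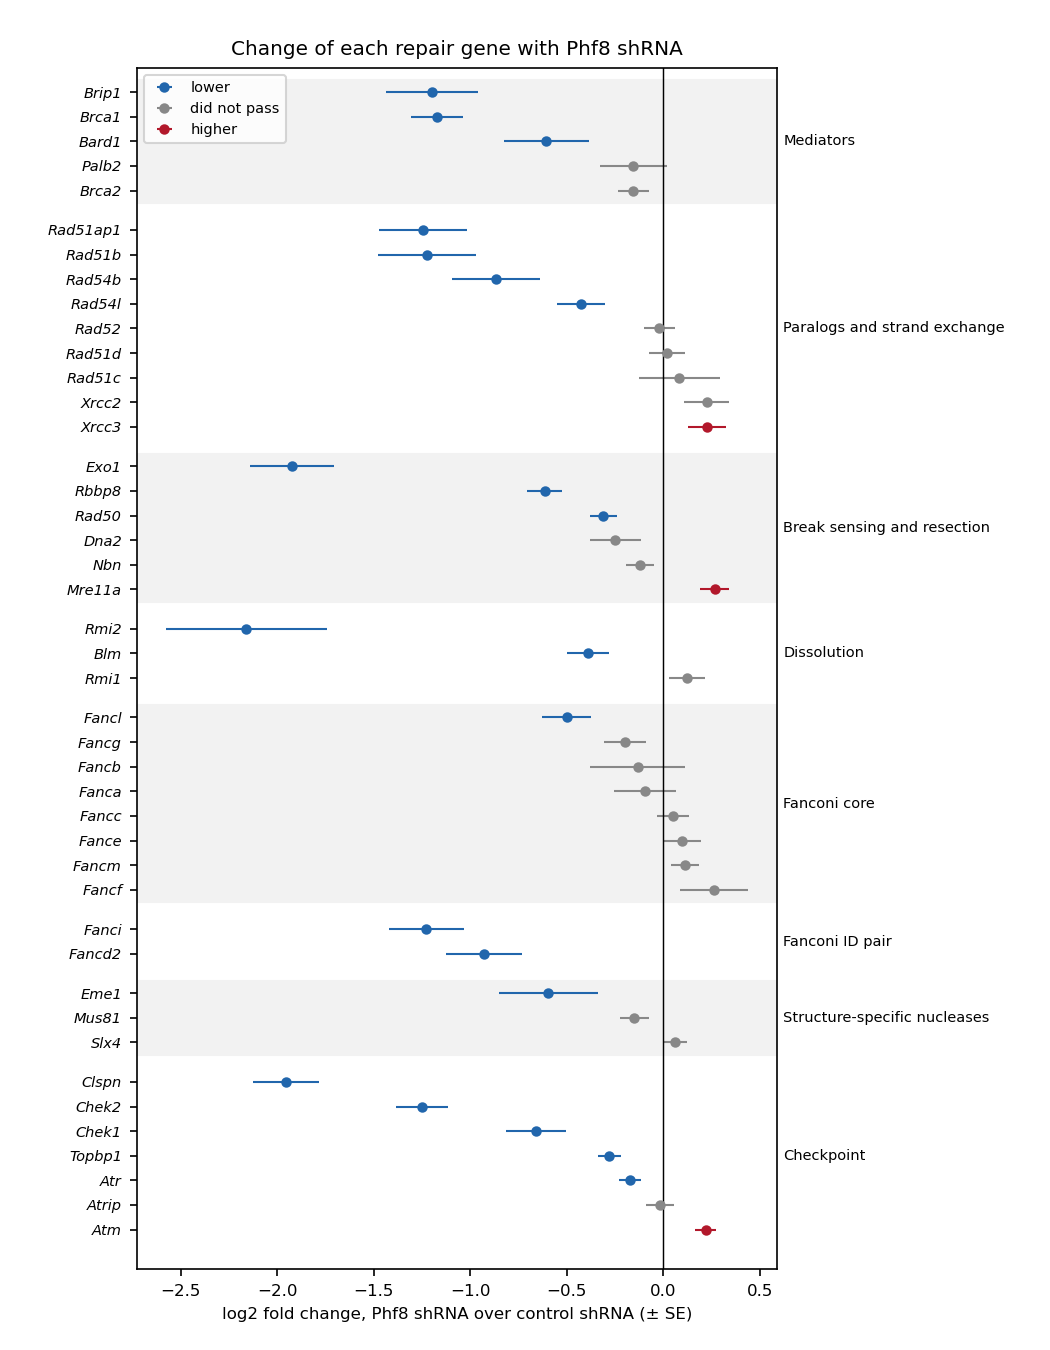
Log2 fold change of Phf8 shRNA over control shRNA with its SE for each of the 43 genes, grouped by role and coloured by the test. The 21 genes that were lower reach -2.16 (Rmi2), while the 3 that were higher, Mre11a, Xrcc3 and Atm, lie at 0.27 or below.

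The proximal promoters of genes toward both ends of the range are shown to describe their sequence. Rmi2 was left out by a minimum level of 1 CPM in control, and RefSeq gave no promoter for Exo1. RefSeq (GRCm38.p6, the same assembly as mm10) gave a promoter for 34 of the 43 members, and the 250 bases before the RefSeq start are printed for the lower genes Clspn (chr4:126556730-126556979, plus strand), Chek2 (chr5:110839733-110839982, plus strand) and Rad51ap1 (chr6:126939588-126939837, minus strand) and for the higher genes Mre11a (chr9:14784404-14784653, plus strand) and Xrcc3 (chr12:111813880-111814129, minus strand). Capitals mark the words searched: CCAAT, a word of the NF-Y factor, which reads ATTGG on the other strand, and an E2F word.
Clspn: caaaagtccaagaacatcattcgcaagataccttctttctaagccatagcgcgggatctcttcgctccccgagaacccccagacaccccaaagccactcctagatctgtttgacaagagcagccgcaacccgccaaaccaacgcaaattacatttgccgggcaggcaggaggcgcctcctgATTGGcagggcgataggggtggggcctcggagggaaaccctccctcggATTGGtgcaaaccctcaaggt
Chek2: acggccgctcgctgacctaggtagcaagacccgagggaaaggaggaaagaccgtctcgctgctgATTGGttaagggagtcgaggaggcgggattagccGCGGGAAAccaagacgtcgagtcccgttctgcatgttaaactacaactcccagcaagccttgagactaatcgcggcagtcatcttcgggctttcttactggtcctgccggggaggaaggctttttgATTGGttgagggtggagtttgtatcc
Rad51ap1: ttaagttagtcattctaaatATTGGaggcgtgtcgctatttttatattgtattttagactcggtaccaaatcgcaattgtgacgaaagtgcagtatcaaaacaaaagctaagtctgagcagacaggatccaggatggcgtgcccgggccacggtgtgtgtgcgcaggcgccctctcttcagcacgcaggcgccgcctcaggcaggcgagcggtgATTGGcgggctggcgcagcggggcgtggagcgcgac
Mre11a: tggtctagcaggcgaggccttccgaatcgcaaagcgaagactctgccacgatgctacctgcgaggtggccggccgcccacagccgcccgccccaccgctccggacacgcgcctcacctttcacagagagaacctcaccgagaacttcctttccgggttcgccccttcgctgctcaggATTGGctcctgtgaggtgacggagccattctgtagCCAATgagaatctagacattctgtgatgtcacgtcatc
Xrcc3: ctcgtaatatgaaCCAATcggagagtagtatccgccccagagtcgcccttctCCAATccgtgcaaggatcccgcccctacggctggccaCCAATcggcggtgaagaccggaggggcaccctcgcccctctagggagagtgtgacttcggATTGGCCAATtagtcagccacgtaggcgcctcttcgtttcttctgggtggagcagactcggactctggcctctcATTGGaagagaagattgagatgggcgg
A CCAAT word stood in all 5 printed promoters, the lower and the higher ones alike. The E2F words searched were TTTCCCGC and TTTGGCGC on both strands. Of the printed promoters, Chek2 held 1, as GCGGGAAA beginning 152 bases before the start.

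In the window from 250 bases before to 50 after the start, an E2F word was found in 6 of 34 members (17.6%) and in 1.80% of the 27025 genes with a RefSeq promoter. The 6 were Bard1 and Chek2, which were lower, and Brca2, Fancg, Rad51c and Rmi1, which did not pass the test. CCAAT was found in 21 of 34 members (61.8%) and in 41.1% of all genes, and these were 8 of 15 lower, 3 of 3 higher and 10 of 16 uncalled members. The cell cycle homology words TTTGAA or TTCGAA were found in 4 of 34 members (11.8%) and in 21.7% of all genes. The 4 were Atr, Bard1, Eme1 and Rad51b, all among the 15 lower members (26.7%, near the 21.7% of all genes). None of the 16 uncalled or 3 higher members held one. These matches describe letters in a short window and were not tested against the changes.

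The mediators include Brca1 and its partner Bard1, which form a ubiquitin ligase at breaks, Palb2, which bridges Brca1 to Brca2, Brca2, which loads the recombinase, and the helicase Brip1. Of these 5 genes, 3 were lower and 2 did not pass. For this class and the classes and lists below, the shares over all genes tested were 27.3% lower and 24.8% higher. Differences between classes were not tested. Brca1 (ENSMUSG00000017146, chromosome 11, 101488764 to 101551955, mm10) had 5.71 and 6.87 CPM in control and 3.08 and 2.45 CPM in Phf8 shRNA libraries. Both Phf8 shRNA libraries were below both controls, a decrease of 2.25-fold (log2 fold change -1.17 ± 0.14 SE, adjusted p = 3.64e-17). Brip1 had 1.66 and 1.96 CPM in control and 0.879 and 0.681 CPM in Phf8 shRNA libraries, 2.29-fold lower (adjusted p = 2.09e-06). Bard1 went from 1.85 and 1.61 CPM to 1.13 and 1.14 CPM, a smaller difference of 1.52-fold with an adjusted p of 0.0139. That call was lost without control replicate 1 or without Phf8 shRNA replicate 1. It was also lost with DESeq2's Wald test and with the coefficient of variation set to 0.2. Brca2 lay at 16.6 and 17.9 CPM in control and 15.7 and 15.3 CPM in Phf8 shRNA libraries, which did not overlap but did not pass (log2 fold change -0.15 ± 0.08 SE, adjusted p = 0.0856). Palb2 had 2.94 and 2.35 CPM in control and 2.34 and 2.42 CPM in Phf8 shRNA libraries, and the groups overlapped (adjusted p = 0.474).

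Within each library, the level of Brca1 per length relative to that of Brca2 was 0.549 and 0.614 in control and 0.313 and 0.257 in Phf8 shRNA libraries. This ratio does not depend on how the libraries are scaled. Ratios of this kind were chosen after the values were seen and are given without a test, since 2 against 2 libraries cannot reach a two-sided exact permutation p below 0.333.

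Among 9 genes of strand exchange, 4 were lower, 1 was higher and 4 did not pass. Rad51ap1, whose product stimulates strand invasion by the recombinase, had 1.87 and 2.22 CPM in control and 1.06 and 0.627 CPM in Phf8 shRNA libraries. It was 2.37-fold lower (log2 fold change -1.25 ± 0.23 SE, adjusted p = 1.89e-07), although the Phf8 shRNA libraries differed from each other. The motor protein gene Rad54b went from 1.83 and 1.74 CPM to 0.925 and 1.04 CPM (1.82-fold lower, adjusted p = 4.32e-04). Of its exonic length, 35.8% is shared with Fsbp, a gene on the same strand, so the counting could assign some of its reads elsewhere. The related gene Rad54l fell by less, from 5.88 ± 0.636 to 4.37 ± 0.167 CPM (SD, n = 2; adjusted p = 0.00164), and lost its call without control replicate 2. It shares 15.4% of its exonic length with a gene on the opposite strand.

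The recombinase paralogs assemble into small complexes that stabilise the recombinase filament. Rad51b had 1.43 and 1.74 CPM in control and 0.648 and 0.708 CPM in Phf8 shRNA libraries, 2.33-fold lower (log2 fold change -1.22 ± 0.25 SE, adjusted p = 6.12e-06). For Rad51c and Rad51d, which work in a complex with it, the groups overlapped. Rad51c stood at 1.34 and 1.81 CPM in control and at 1.64 and 1.69 CPM in Phf8 shRNA libraries, and Rad51d at 9.71 and 10.1 CPM and at 10.1 and 9.97 CPM. The log2 fold changes were 0.08 ± 0.21 and 0.02 ± 0.09 (SE). Xrcc2 had 5.71 and 4.99 CPM in control and 6.13 and 6.40 CPM in Phf8 shRNA libraries, higher in both but short of the threshold (adjusted p = 0.0953). Xrcc3 had 7.74 and 7.36 CPM in control and 8.16 and 9.59 CPM in Phf8 shRNA libraries, 1.17-fold higher with an adjusted p of 0.0449. That small increase lost its call under several alternatives, including without control replicate 1, without control replicate 2 and without Phf8 shRNA replicate 2. Rad52, which anneals single strands, had 15.2 and 16.2 CPM in control and 15.3 and 15.7 CPM in Phf8 shRNA libraries, with a log2 fold change of -0.02 ± 0.08 (SE).

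Break sensing is the task of the MRN complex (Mre11a, Rad50 and Nbn), and resection, the trimming of ends, that of Rbbp8 (CtIP), the exonuclease Exo1 and the nuclease-helicase Dna2. The 3 subunits of MRN did not move together. Mre11a (chromosome 9, 14784654 to 14837123) was higher, with 17.2 and 16.5 CPM in control and 20.6 and 19.9 CPM in Phf8 shRNA libraries (log2 fold change 0.27 ± 0.07 SE, adjusted p = 0.00104). Rad50 was lower, with 25.5 and 27.3 CPM in control and 21.8 and 20.7 CPM in Phf8 shRNA libraries (log2 fold change -0.31 ± 0.07 SE, adjusted p = 2.72e-05). Nbn had 22.5 and 23.1 CPM in control and 21.8 and 20.0 CPM in Phf8 shRNA libraries and did not pass (adjusted p = 0.153). As a result, the ratio of Mre11a to Rad50 per length was 0.613 and 0.548 in control and 0.858 and 0.873 in Phf8 shRNA libraries.

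Exo1 (ENSMUSG00000039748, chromosome 1, 175880581 to 175913489) showed the largest decrease of the resection genes. It had 2.59 and 3.03 CPM in control and 0.786 and 0.681 CPM in Phf8 shRNA libraries, a log2 fold change of -1.92 ± 0.22 (SE, adjusted p = 1.48e-17). Rbbp8, which starts resection together with MRN, went from 12.5 and 13.5 CPM to 8.05 and 8.96 CPM (1.53-fold lower, adjusted p = 6.7e-11). Dna2 had 4.74 and 4.6 CPM in control and 3.77 and 4.11 CPM in Phf8 shRNA libraries, lower in both but not past the threshold (adjusted p = 0.112).

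Dissolution of joined DNA molecules is carried out by the helicase Blm with Rmi1 and Rmi2. Rmi2, the least abundant of all members per length in control, had 0.786 and 0.684 CPM in control and 0.231 and 0.0817 CPM in Phf8 shRNA libraries. These levels rest on 62 reads in control and 13 in Phf8 shRNA libraries. Allowing for depth, the ratio of the 2 read sums was 4.53, with a 95% counting interval of 2.47 to 8.98 that covers counting error only (adjusted p = 9.66e-07). Blm went from 7.58 and 7.53 CPM to 6.11 and 5.39 CPM (1.31-fold lower, adjusted p = 0.0011). Rmi1, which binds Rmi2 directly, had 9.08 and 9.80 CPM in control and 10.4 and 10.1 CPM in Phf8 shRNA libraries and did not pass (adjusted p = 0.27). The ratio of Rmi2 to Rmi1 per length was 0.126 and 0.102 in control and 0.0324 and 0.0118 in Phf8 shRNA libraries.

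The Fanconi core complex is the ubiquitin ligase that marks the Fancd2 and Fanci pair when a crosslink stalls a fork. Both targets of the ligase were lower and 7 of 8 core genes did not pass, beside 27.3% lower and 52.1% called over all genes tested. The difference between the core and its targets was not tested. Fanci had 3.14 and 2.71 CPM in control and 1.27 and 1.23 CPM in Phf8 shRNA libraries (2.34-fold lower, log2 fold change -1.23 ± 0.19 SE, adjusted p = 1.09e-09). Fancd2 had 2.68 and 2.37 CPM in control and 1.34 and 1.31 CPM in Phf8 shRNA libraries (1.91-fold lower, adjusted p = 8.44e-06). Of the exonic length of Fanci, 16.0% overlaps a gene on the opposite strand. Fancl, the catalytic subunit of the core, was the core gene that passed, going from 5.71 and 5.62 CPM to 4.00 and 4.00 CPM (1.42-fold lower, adjusted p = 2.6e-04). Relative to the summed level of the 8 core genes per length, that of Fancd2 and Fanci was 0.0771 and 0.0660 in control and 0.0334 and 0.0340 in Phf8 shRNA libraries.

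The remaining core genes did not pass the test. For Fance, Fancf, Fancg and Fancm the groups did not overlap, as in 73.9% of all genes tested. Fanca had 2.91 and 3.06 CPM in control and 3.05 and 2.51 CPM in Phf8 shRNA libraries, Fancb 1.32 and 1.03 CPM and 1.27 and 0.844 CPM, and Fancc 12.4 and 12.8 CPM and 12.5 and 13.6 CPM, all with overlapping groups. Fance, which contacts Fancd2, had 8.0 and 8.31 CPM in control and 8.72 CPM in both Phf8 shRNA libraries. Fancf, an adaptor within the core, had 2.24 and 2.08 CPM and then 2.87 and 2.29 CPM. Fancg lay at 7.0 and 7.31 CPM in control and at 6.57 and 5.88 CPM in Phf8 shRNA libraries. Fancm, the translocase that brings the core to DNA, had 19.0 and 20.8 CPM in control and 21.5 CPM in both Phf8 shRNA libraries. Fancc (18.6%), Fancf (15.0%), Fancl (13.7%) and Fanca (10.5%) share part of their exonic length with genes on the opposite strand, and without the strand option of the counting their levels are uncertain to that degree. The 7 log2 fold changes ran from -0.20 (Fancg) to 0.26 (Fancf). Precision was lowest for Fancb, at an SE of 0.24, where a difference as large as that of Fancl would be close to 2 SEs.

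Of 3 nuclease genes, Eme1, the partner of Mus81, went from 1.11 and 1.39 CPM to 0.833 and 0.817 CPM (1.51-fold lower, adjusted p = 0.041). Its call was lost without control replicate 2 and without either Phf8 shRNA replicate. It was also lost with upper-quartile scaling, DESeq2's Wald test, limma-voom and the coefficient of variation set to 0.2. Mus81, the catalytic subunit that cuts branched DNA, had 20.8 and 20.0 CPM in control and 18.6 and 18.3 CPM in Phf8 shRNA libraries (adjusted p = 0.0772). Slx4, the scaffold that gathers several nucleases, had 35.0 and 32.4 CPM in control and 35.5 and 34.8 CPM in Phf8 shRNA libraries, with overlapping groups.

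Checkpoint genes gave 5 lower, 1 higher and 1 uncalled gene. Clspn (ENSMUSG00000042489, chromosome 4, 126556935 to 126593903), the adaptor that lets ATR activate Chek1, had 5.29 and 4.40 CPM in control and 1.32 and 1.17 CPM in Phf8 shRNA libraries. Its log2 fold change was -1.95 ± 0.17 (SE, adjusted p = 9.91e-29). Chek2, the kinase downstream of ATM, had 6.54 and 6.80 CPM in control and 2.84 and 2.75 CPM in Phf8 shRNA libraries (2.38-fold lower, log2 fold change -1.25 ± 0.13 SE, adjusted p = 5.75e-20). Chek2 was not among the S or G2 genes, and with Rad51b it was 1 of the 2 others that were at least 2-fold lower. Chek1, the kinase downstream of ATR, went from 3.72 and 4.13 CPM to 2.89 and 2.02 CPM (1.58-fold lower, adjusted p = 6.89e-05). The ratio of Chek2 to Chek1 per length was 2.71 and 2.54 in control and 1.52 and 2.11 in Phf8 shRNA libraries. Topbp1, an activator of ATR, was 1.21-fold lower, at 44.4 ± 0.0232 and 36.6 ± 0.197 CPM (SD, n = 2; adjusted p = 1.45e-05).

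The kinases at the top of both branches moved in opposite directions by small amounts. Atm (chromosome 9, 53439149 to 53536740) had 77.5 and 84.8 CPM in control and 97.9 and 91.0 CPM in Phf8 shRNA libraries (log2 fold change 0.22 ± 0.06 SE, adjusted p = 2.49e-04). Atr was 1.13-fold lower, at 62.5 ± 3.26 and 55.4 ± 1.28 CPM (SD, n = 2; adjusted p = 0.0054). The call of Atm was lost without control replicate 1, and that of Atr without control replicate 2 and with upper-quartile scaling. The ratio of Atm to Atr per length was 2.94 and 2.99 in control and 3.98 and 3.82 in Phf8 shRNA libraries. Atrip, the obligate partner of ATR, had 19.4 and 20.4 CPM in control and 19.6 and 19.8 CPM in Phf8 shRNA libraries, and 16.0% of its exonic length is shared with Trex1 on the same strand.

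**Figure D3:**
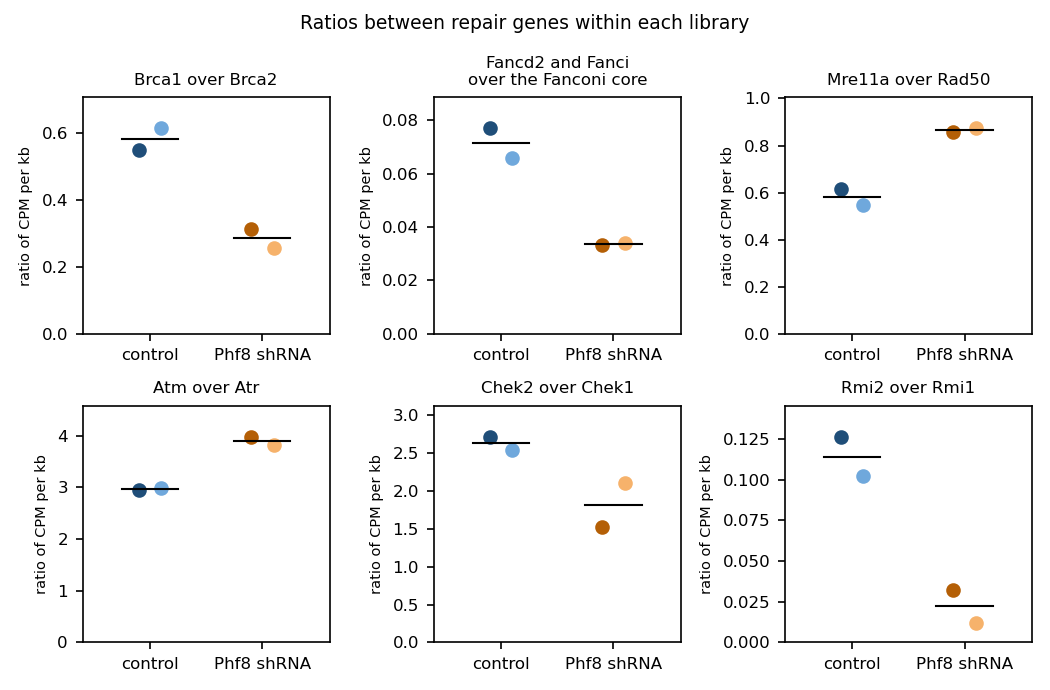
Ratios of CPM per kb of exon between repair genes within each library, 1 point per library and a line at the group mean (n = 2), on axes that start at 0. Ratios of Brca1 to Brca2, of Fancd2 and Fanci to the core genes, of Chek2 to Chek1 and of Rmi2 to Rmi1 are lower with Phf8 shRNA, and those of Mre11a to Rad50 (0.858 and 0.873 against 0.613 and 0.548) and of Atm to Atr are higher.

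Other genes of both pathways and of related damage responses were taken from a list of 50 that holds no member. They gave 22 lower, 5 higher and 23 uncalled genes, with a median log2 fold change of -0.12. Decreases of at least 2-fold were found in 4 of the 50, near the 8.71% of all genes tested. Fignl1, whose product acts on the recombinase, was 2.92-fold lower (3.77 ± 0.300 to 1.29 ± 0.0964 CPM, SD, n = 2), and Etaa1, another activator of ATR, was 1.78-fold lower (24.6 ± 0.389 to 13.8 ± 0.632 CPM). The other repair pathways were counted likewise, and with upper-quartile scaling their medians and that of the 50 genes lay between -0.04 and 0.11, beside 0.10 over all genes tested. End joining, the competing route for breaks, had 5 lower and 3 higher of 13 genes (median -0.10), with Polm 2.24-fold and Paxx 1.61-fold lower. Base excision and single-strand break repair had 3 lower and 3 higher of 19 genes tested (median 0.01, and -0.04 scaled by library size alone). Lig1 and Ogg1 were among the lower ones, at 1.6-fold and 1.51-fold. Nucleotide excision repair had 5 lower and 2 higher of 16 (median -0.10), and its lower genes Cetn2 and Rad23b fell 2.18-fold and 1.44-fold. The median over 7 mismatch repair genes was 0.02, and -0.03 scaled by library size alone.

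Many cell cycle genes were lower too, beside 27.3% lower over all genes tested. Of 36 replication genes 21 were lower and 2 were higher (median -0.31), among them the helicase genes Mcm6 and Mcm4 at 1.70-fold and 1.71-fold lower. Of 26 mitotic genes 23 were lower and 3 did not pass (median -1.30), with Top2a 3.54-fold and Mki67 3.06-fold lower. Their summed levels fell from 423 and 414 CPM to 338 and 326 CPM and from 154 and 158 CPM to 66.3 and 59.2 CPM. The S or G2 members, summed, stood at 0.286 and 0.297 of the replication list in control and at 0.275 and 0.273 in Phf8 shRNA libraries. Against the mitotic list they stood at 0.785 and 0.779 in control and at 1.4 and 1.5 in Phf8 shRNA libraries. The summed levels were 1.34-fold lower for the S or G2 members, 1.26-fold for the replication list and 2.49-fold for the mitotic list. Sums weigh abundant genes most, and the most abundant S or G2 members were Topbp1 (44.4 CPM in control, 1.21-fold lower) and Brca2 (17.3 CPM, uncalled). By median log2 fold change the S or G2 members stood at -0.63 and the replication list at -0.31. These differences between lists were not tested, and the part of cell cycle activity in the decreases was not tested.

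**Figure D4:**
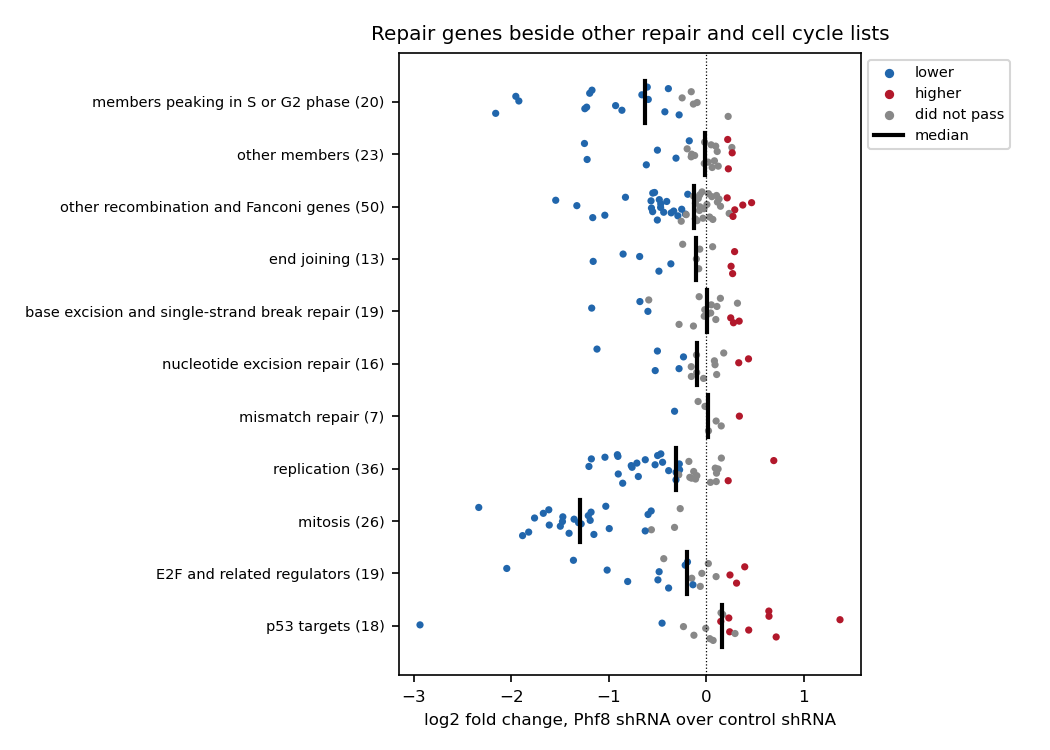
Log2 fold change of Phf8 shRNA over control shRNA for each gene tested (points, coloured by the test) with the median of each list (bar) and the number of genes tested in brackets. The median of the S or G2 members (-0.63) lies between those of the replication (-0.31) and mitosis (-1.30) lists, and that of the other members (-0.02) lies near 0.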

How the data were processed

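RNA of 4 libraries was analysed, grouped by sample title. Per the submitters' processing notes, HISAT2, HTSeq and DESeq2 were used with mm10. The library kit was stranded, per the labels' protocols; for the strand option of the counting, the annotation and tool versions, nothing is stated (not given in the sources used here). Each deposited file gives a whole-number count of reads per gene, taken as raw counts because totals differ between libraries. Symbols came from GENCODE M21 (55154 of 55421 identifiers), whose exons gave lengths and overlaps. All 43 members had the deposited start and end.

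The main test was edgeR 4.0.16 (R 4.3.3): filterByExpr, TMM scaling, quasi-likelihood F test without covariates over all 21042 genes kept, two-sided, Benjamini-Hochberg adjusted p under 0.05. Every adjusted p printed without another tool's name is from it. SEs were derived as the fold change over the root of F. On simulated counts (20653 genes tested) it recovered 31, 45, 48 and 50 of 50 genes changed 1.25, 1.5, 2 and 4-fold, with 15 false calls. The changed genes had a mean of at least 1 CPM, and the spread was estimated from these same libraries. Far fewer genes were changed than the 52.1% called in the data, so these counts need not hold there. Across genes, which are not independent replicates, Pearson's r between libraries was 0.995 within each group and 0.958 to 0.962 between groups. Libraries of a group differed by more than sampling noise (chi-square per degree of freedom 3.18 and 2.88).

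Members, classes and lists were chosen with earlier results of these data known. Values per library were given for up to 3 called members per class with the largest absolute log2 fold change, called members that moved against the majority, and uncalled members. Up to 2 called genes with the smallest p were named per list. Promoters of the 4 lower members with the largest change and at least 1 CPM in control and of the 2 higher members with the largest change were to be printed; RefSeq gave none for Exo1. Alternatives were other scalings, DESeq2 1.42.0, limma-voom 3.58.1, other filters, the replicate block, each library left out, fewer abundant genes, a stricter threshold and a set spread.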

Additional observations from a re-analysis of the deposited data

How the results depend on the processing

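Of 14 refits of the members, 4 changed no member's call (DESeq2's size factors, the filter of 1 CPM, the replicate block, and the fit lacking mitochondrial and other highly abundant genes). Brca1, Brip1, Rad51b, Rad51ap1, Exo1, Rmi2, Fancd2, Fanci, Chek2 and Clspn remained lower in every refit that tested them; Rmi2 did not pass the filter of 1 CPM. With upper-quartile scaling 6 members were higher instead of 3 and 19 lower, and among all genes changed, percent of calls higher was 58.0 against 47.7 with TMM. DESeq2's Wald test and limma-voom, which estimated the spread themselves, each gave 2 higher members. With the coefficient of variation between samples set to 0.2 (3.64% was estimated), 10 members were lower and 0 higher by edgeR's likelihood ratio test. All genes changed came to 3305. Phf8 itself then stood at -0.30 with an adjusted p of 0.639. Leaving out each library in turn gave 18 to 20 lower and 1 to 3 higher members, the smallest count of higher members being that without control replicate 1. With the replicate number as a block, 21 members were lower and 3 higher, and all genes changed came to 10929 against 10965. Same-numbered libraries did not deviate together (correlation of deviations across genes -0.00102). That value cannot show whether they came from the same culture or infection. No other alternative moved a count of members by over 1.5 times. Xrcc3, at 7.55 CPM in control, lost its call most often and kept it in 6 of 14 refits. Depth limits the members under 2 CPM, among which Eme1 and Bard1 lost their calls most often. Brip1, Rad51b and Rmi2, also under 2 CPM, kept theirs in every refit that tested them. The largest SE was 0.42, for Rmi2.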

Other observations

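Regulators of the cell cycle programme that controls many repair genes were counted in the same way. Of 19 genes of the E2F, retinoblastoma and DREAM families, 10 were lower and 3 were higher with Phf8 shRNA, beside 27.3% lower and 24.8% higher over all genes tested. Their median was -0.19 on the log2 scale, with no test of the list as a group. Rb1, the retinoblastoma gene, was 1.75-fold lower (188 ± 5.27 to 107 ± 6.13 CPM, SD, n = 2), and E2f6 was 1.31-fold higher (30.7 ± 2.12 to 40.3 ± 2.17 CPM). The 3 genes called at least 2-fold lower, named after their values were seen, were E2f7 (4.13-fold), E2f2 (2.57-fold) and E2f8 (2.02-fold). Called at least 2-fold higher were 0, beside 8.71% lower and 5.5% higher by that much over all genes tested.

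Targets of p53, which is activated by ATM and Chek2 after damage, were also counted, with no test of the list as a group. Of 18 targets 8 were higher, 2 were lower and 8 did not pass, with a median of 0.16, beside 24.8% higher over all genes tested. Cdkn1a, a cell cycle inhibitor, was 2.59-fold higher (6.70 ± 0.861 to 17.3 ± 1.22 CPM), while the death receptor gene Fas was 7.66-fold lower (57.7 ± 0.595 to 7.50 ± 0.549 CPM).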
